A study of Mus musculus with 12 samples.

Results

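Cytokines such as interleukin 6, tumour necrosis factor and interleukin 1 beta pass alarm signals between cells, and acute-phase proteins are secreted defence and binding proteins whose synthesis these cytokines raise. Interleukin 1 and tumour necrosis factor act largely through NF-kB, and interleukin 6 acts through gp130, JAK kinases and STAT3, with C/EBP factors acting beside both. The liver is the main source of most plasma acute-phase proteins, but adipocytes, stromal cells and macrophages of fat also express several of them, including lipocalin 2, haptoglobin and serum amyloid A3. The 10 genes described here are 5 acute-phase genes (Lcn2, Saa3, Ptx3, Hp and Serpina3n), 3 cytokine genes (Il6, Tnf and Il1b) and 2 genes for restraints on cytokine signalling (Il1rn and Socs3). They were taken by gene symbol, and all 10 were found among the 55536 genes of each count table.

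Poly-A RNA of C57BL/6 mice was sequenced from a thermogenic depot, brown adipose tissue (BAT), and from the subcutaneous fat of the groin, abbreviated IWAT for inguinal white adipose tissue. The KI-HFD libraries carry the genotype label Adv-CGRPalpha+/- and a title with HFD, the high-fat diet. The WT-NC libraries are wild type, with NC, normal chow, in the title. There were 3 libraries in each of the 4 groups of depot and condition. Genotype and diet change together and their effects cannot be told apart. The labels give neither the age of the mice nor how the allele was built, and the title of the series places CGRP in sensory neurons. The replicates are taken as separate animals only through the number of animals per group in the series text, and otherwise the p-values measure only the spread between these libraries.

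Libraries held 17408621 to 23514095 counts in genes. The depot labels were checked with brown adipocyte markers, led by Ucp1, Cidea and Cox8b: their summed level was 10941 to 21017 CPM in BAT libraries and 143 to 370 CPM in IWAT libraries. CPM here are counts brought to a common library total, after TMM scaling over all 12 libraries. Calca, the gene for CGRP alpha, had at most 25 counts in any library; it is made in neurons whose nuclei lie in sensory ganglia, and its counts in fat are no check of the genotype labels. A pair of libraries stood apart from the rest of their depot in T and B cell or skeletal muscle markers. T and B cell markers, led by Cd79b, Cd79a and Ms4a1, summed to 623 CPM in IWAT KI-HFD replicate 3 and to 4.84 and 9.77 CPM in the other IWAT KI-HFD libraries, against 10.4 to 38.1 CPM in IWAT WT-NC. Skeletal muscle markers, led by Acta1, Myh4 and Tnnt3, summed to 60745 CPM in BAT WT-NC replicate 2 and to 500 to 16665 CPM in the other BAT libraries. In whole tissue, fewer cells of a type and less RNA per cell cannot be told apart.

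The bases before the start site of 3 of the genes are shown because their windows hold a C/EBP match outside the annotated exons. Each of the 3 also had its lowest group mean in BAT KI-HFD, as most of the 10 genes did. RefSeq (GRCm38.p6) gave promoter windows for 9 of the 10 genes, and the 250 bases before each start were searched. The motifs were C/EBP (TTNNGCAA), STAT (TTCNNNGAA), AP-1 (TGANTCA) and the NF-kB consensus on both strands, and the TATA box (TATAAA) on the gene's own strand. Of all 32851 windows of the same length, 9.56% held C/EBP, 7.02% STAT, 6.75% AP-1, 7.25% the NF-kB consensus and 7.59% the TATA box. Capitals mark C/EBP, NF-kB and AP-1 matches, and no marked match overlaps another. The windows are Ptx3 at chr3:66219637-66219886 (plus strand), Il6 at chr5:30012864-30013113 (plus strand) and Saa3 at chr7:46715701-46715926 (minus strand, without 24 bases that the GENCODE annotation counts as exon), each read 5′ to 3′ along its gene.
Ptx3: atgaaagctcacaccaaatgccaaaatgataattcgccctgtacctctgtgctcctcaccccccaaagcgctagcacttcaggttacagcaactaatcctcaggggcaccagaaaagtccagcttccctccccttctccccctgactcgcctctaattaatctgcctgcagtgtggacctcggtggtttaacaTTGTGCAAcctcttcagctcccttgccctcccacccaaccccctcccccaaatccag
Il6: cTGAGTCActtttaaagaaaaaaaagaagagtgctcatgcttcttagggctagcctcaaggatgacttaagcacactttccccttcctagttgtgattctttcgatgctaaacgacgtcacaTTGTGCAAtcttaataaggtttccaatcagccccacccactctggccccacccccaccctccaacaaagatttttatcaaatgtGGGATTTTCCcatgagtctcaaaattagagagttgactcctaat
Saa3: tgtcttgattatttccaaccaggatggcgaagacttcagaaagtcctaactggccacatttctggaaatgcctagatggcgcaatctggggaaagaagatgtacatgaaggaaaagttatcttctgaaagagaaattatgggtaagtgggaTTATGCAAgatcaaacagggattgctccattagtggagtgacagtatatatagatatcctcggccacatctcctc
The C/EBP matches began 57 bases before the start in Ptx3, 128 in Il6 and 99 in Saa3. Il6 also held the NF-kB consensus 44 bases and AP-1 249 bases before its start. Elsewhere among the 9 genes, Lcn2 held C/EBP at bases that the GENCODE annotation counts as exon. Il1rn held AP-1, Socs3 STAT, and Il1b and Tnf the TATA box. A match is a description of the letters and not evidence of binding.

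Levels of the genes spanned several orders of magnitude. Per kilobase of exon, which makes genes comparable, Hp averaged 1833 CPM per kb over the 12 libraries. Hp encodes haptoglobin, the plasma protein that binds free haemoglobin, and is a known product of adipocytes. Serpina3n, the gene for a mouse relative of the protease inhibitor antichymotrypsin, averaged 90.3 CPM per kb. The other 8 genes averaged between 0.0557 CPM per kb for Il6 and 3.70 CPM per kb for Socs3. The lowest mean of the 4 groups was in BAT KI-HFD for 8 of the 10 genes and in IWAT KI-HFD for Il1b and Il1rn.

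**Figure D1:**
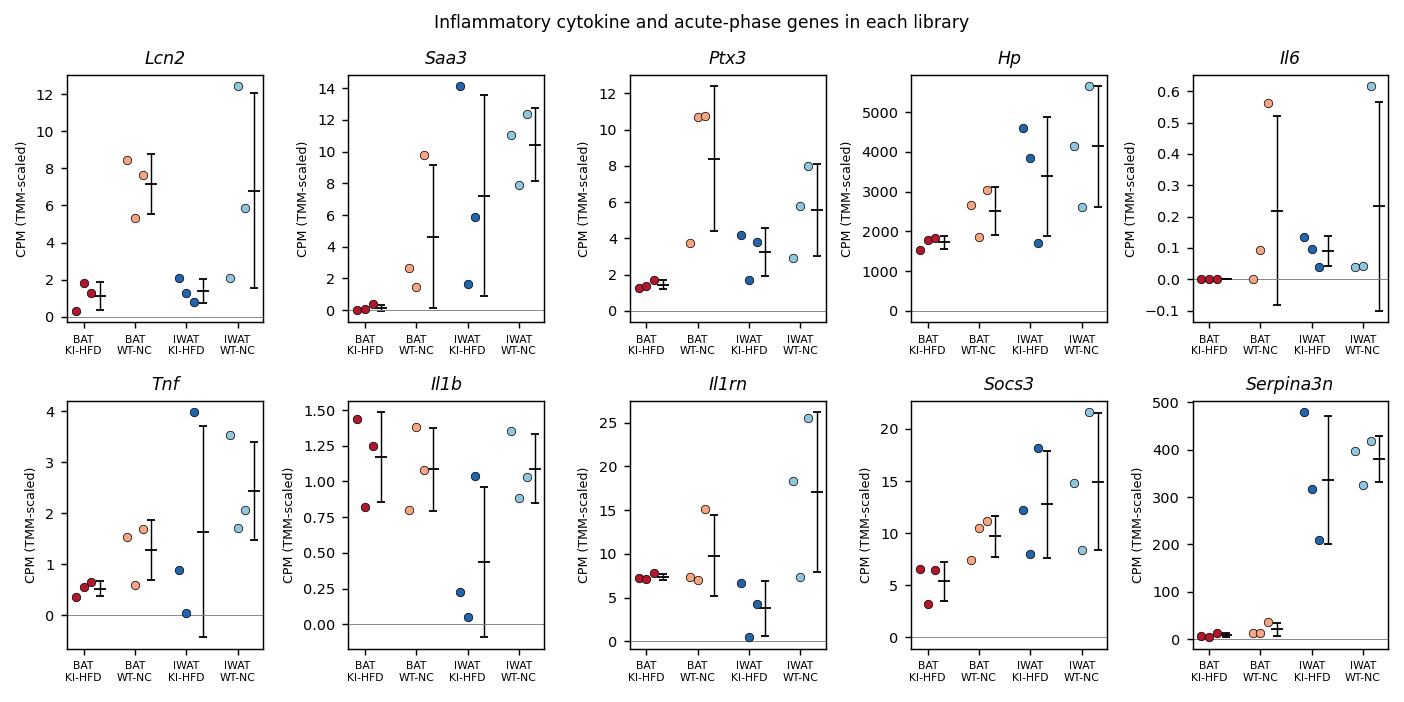
Level of each of the 10 genes in every library, in CPM after TMM scaling on a linear axis with its own range per gene; dots are libraries in replicate order and the bar beside them is the mean with SD (n = 3), drawn below 0 where the SD exceeds the mean. In BAT, all 3 KI-HFD libraries lie below all 3 WT-NC libraries for Lcn2, Saa3, Ptx3, Hp and Socs3, and Serpina3n is at 210 to 479 CPM in IWAT against at most 36.8 CPM in BAT.

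In BAT, no member passed the threshold, but 3 acute-phase genes had the lowest levels in KI-HFD relative to WT-NC. Lcn2, Saa3 and Ptx3 were 6.41-fold, 32.4-fold and 5.81-fold lower in the KI-HFD libraries, with complete separation of the groups, and their adjusted p by edgeR's quasi-likelihood test with Benjamini-Hochberg adjustment was 0.277, 0.281 and 0.239. The cytokine genes Tnf and Il1b had overlapping groups, and Il6 was too low to test. Of the 9 genes tested, 0 were called, where 0.0445% of all 15726 genes were called lower. By unadjusted p under 0.05, 5 of the 9 were lower and 0 higher (4.76% of all genes lower), and limma-voom called 0. DESeq2 called 3 lower, Lcn2, Saa3 and Ptx3 (1.23% of all genes), and the same 3 were called by edgeR without the filter on low counts. The groups did not overlap, with KI-HFD lower, for 5 of the 9 (6.25% of all genes). The log2 fold change was below 0 for 8 of the 9 (49.5% of all genes) and for all 9 when libraries were scaled by their totals, which moves the median of all genes to -0.14. Its median was -1.25, against 0.005 over all genes.

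Lcn2 (ENSMUSG00000026822.14; chromosome 2, 32384633 to 32388252, minus strand, GRCm38) encodes lipocalin 2, which binds bacterial siderophores and is secreted by neutrophils and adipocytes. Its level in BAT was 0.300, 1.81 and 1.25 CPM in the KI-HFD libraries and 8.46, 5.33 and 7.64 CPM in the WT-NC libraries. Every KI-HFD library was therefore below every WT-NC library, and the log2 fold change was -2.68 (SE 0.588). DESeq2 gave an adjusted p of 0.000521 for Lcn2, and over all alternatives its adjusted p ran between 0.000521 and 0.807.

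Saa3 (ENSMUSG00000040026.8; chromosome 7, 46711998 to 46715700, minus strand), serum amyloid A3, is the isoform made mainly outside the liver, by macrophages and adipocytes. The BAT KI-HFD libraries held 0, 1 and 6 Saa3 counts, and the BAT WT-NC libraries 46, 32 and 209. In CPM this was 0, 0.0549 and 0.357 in KI-HFD and 2.63, 1.47 and 9.79 in WT-NC, so the groups did not overlap, but 1 WT-NC library carried most of that group's reads. The log2 fold change of -5.02 (SE 1.12) rests on 7 counts in the KI-HFD group and 287 in the WT-NC group. Its size depended on single libraries: it was -3.87 without BAT WT-NC replicate 3, which held 209 counts, and -7.05 without BAT KI-HFD replicate 3, which held 6 of the 7 KI-HFD counts. Saa3 has close paralogs (Saa1, Saa2, Saa4), so its counts are uncertain where reads could align to more than one of them.

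Ptx3 (ENSMUSG00000027832.5; chromosome 3, 66219910 to 66225805, plus strand) encodes pentraxin 3, a secreted pattern recognition protein of the family of C-reactive protein that is made at the site of inflammation. Its level in BAT was 1.26, 1.37 and 1.72 CPM in KI-HFD, against 3.77, 10.7 and 10.7 CPM in WT-NC. The KI-HFD libraries lay close together and below the whole WT-NC range, and the log2 fold change was -2.54 (SE 0.468). Ptx3 ranked 34 by p among the 15726 genes tested in BAT, Lcn2 ranked 94 and Saa3 108. Ptx3 overlaps the gene Veph1 in the annotation, and without strand the reads of the overlap cannot be told apart.

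The other acute-phase genes had smaller fold changes in BAT. Hp was at 1541, 1794 and 1842 CPM in the BAT KI-HFD libraries and at 2668, 1858 and 3041 CPM in the BAT WT-NC libraries. The highest KI-HFD library was just under the lowest WT-NC library, and the log2 fold change was -0.56 (SE 0.321, edgeR quasi-likelihood adjusted p = 0.755). Serpina3n had 7.14, 5.05 and 13.97 CPM in KI-HFD and 12.7, 12.6 and 36.8 CPM in WT-NC, with 1 KI-HFD library inside the WT-NC range (log2 fold change -1.25, SE 0.524, edgeR adjusted p = 0.629). Without WT-NC replicate 3, the highest of these 6 libraries, the log2 fold change of Serpina3n was -0.56. Serpina3n belongs to a cluster of closely related genes on chromosome 12, which makes its counts uncertain too.

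Among the cytokines, Il6 (chromosome 5, 30013114 to 30019981, plus strand), which encodes interleukin 6, was detected in 2 of the 6 BAT libraries. The KI-HFD libraries held 0 Il6 counts each, which allows up to 0.165 to 0.180 CPM (3 counts, counting error only), and the WT-NC libraries held 0, 2 and 12. A single WT-NC library was above that limit, so no difference in Il6 was detectable at this depth. Tnf, the gene for tumour necrosis factor, had 0.360, 0.549 and 0.654 CPM in KI-HFD and 1.54, 0.598 and 1.69 CPM in WT-NC. The WT-NC replicate 2, with the high muscle marker level, lay within the KI-HFD range for Tnf, and the log2 fold change was -1.29 (SE 0.615, edgeR quasi-likelihood adjusted p = 0.673). Il1b, the gene for interleukin 1 beta, had 1.44, 0.824 and 1.25 CPM in KI-HFD against 0.800, 1.38 and 1.08 CPM in WT-NC, a log2 fold change of 0.09 (SE 0.510) whose sign turned with 4 of the 15 alternatives. Il1b overlaps the antisense gene Il1bos, from which these reads cannot be separated.

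Of the restraints, Socs3 (chromosome 11, 117966079 to 117970047, minus strand) encodes the feedback inhibitor that JAK-STAT3 signalling induces against its own receptors. It was at 6.54, 3.24 and 6.42 CPM in BAT KI-HFD and at 7.43, 10.5 and 11.2 CPM in BAT WT-NC. The groups did not overlap, and the log2 fold change of -0.85 (SE 0.358) had an edgeR quasi-likelihood adjusted p of 0.629. Il1rn encodes the receptor antagonist that blocks interleukin 1. Its level was 7.26, 7.14 and 7.79 CPM in KI-HFD and 7.31, 6.99 and 15.1 CPM in WT-NC, where a single library stood above all others (log2 fold change -0.41, SE 0.347, edgeR adjusted p = 0.850).

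**Figure D2:**
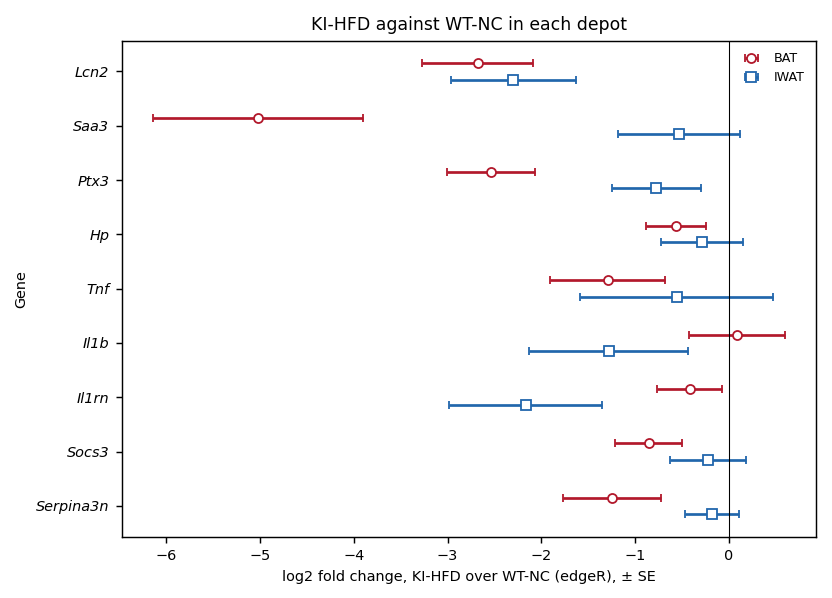
Log2 fold change of KI-HFD over WT-NC for the 9 genes tested, in BAT (circles) and IWAT (squares). Bars are the SE derived from the edgeR test. Open symbols mark that no gene passed an adjusted p of 0.05; Lcn2 is at -2.68 in BAT and -2.30 in IWAT, while Saa3 is at -5.02 in BAT and -0.53 in IWAT.

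The lower levels in BAT stood beside lower macrophage transcripts. The 16 macrophage markers, led by Lyz2, Ctss and Gpnmb, summed to 228 to 301 CPM in BAT KI-HFD and to 410 to 1581 CPM in BAT WT-NC, with no marker at 0 in any library. By edgeR, 0 of the 16 were called and 13 were lower by unadjusted p under 0.05 (4.76% of all genes). The median log2 fold change of the 16 was -2.36, against 0.005 over all genes. Neutrophil markers, led in BAT by Csf3r, Mmp9 and S100a9, summed to 5.52 to 6.21 CPM in KI-HFD and 6.74 to 13.1 CPM in WT-NC, with 2 to 8 of the 14 at 0 in a library. Fibroblast and progenitor markers (Col3a1, Dcn and Ly6a the highest in BAT) summed to 786 to 1041 CPM in KI-HFD and 703 to 2344 CPM in WT-NC, and adipocyte markers (Fabp4, Pnpla2 and Cidec) to 22645 to 29101 CPM and 14383 to 22678 CPM in these 2 groups. T and B cell markers summed to 5.11 to 10.9 CPM in BAT KI-HFD and 8.60 to 14.9 CPM in BAT WT-NC, and endothelial markers (Kdr, Pecam1 and Tie1) to 1116 to 1288 CPM and 994 to 1359 CPM. Liver markers, led by Serpina1a, Apoa2 and Alb, summed to no more than 4.22 CPM in any BAT library, and mesothelial markers, led by Lrrn4, Krt19 and Krt7, to no more than 8.18 CPM. The part of these cell types in the levels of the acute-phase genes was not tested.

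Without BAT WT-NC replicate 2, the log2 fold change in BAT was -2.85 for Lcn2, -5.44 for Saa3 and -2.31 for Ptx3, and 0 members were called by edgeR. Within the libraries whose file numbers belong to the lower of the 2 number series present, 2 KI-HFD and 2 WT-NC, these values were -2.20, -3.33 and -2.26.

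**Figure D3:**
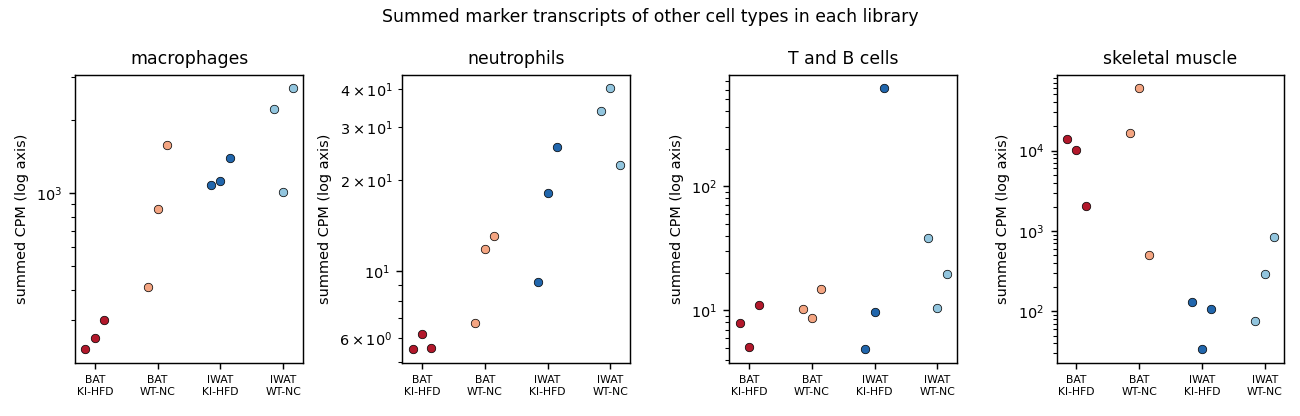
Summed CPM of marker genes of macrophages, neutrophils, T and B cells and skeletal muscle in every library, on log axes; dots are libraries in replicate order. Macrophage sums are at 228 to 301 CPM in BAT KI-HFD and 410 to 1581 CPM in BAT WT-NC, IWAT KI-HFD replicate 3 is alone at 623 CPM for T and B cells, and BAT WT-NC replicate 2 is highest for muscle.

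In IWAT, Lcn2 and Il1rn were the members with the largest differences, and both groups were fully separated for them. Lcn2 was 4.91-fold and Il1rn 4.49-fold lower in the KI-HFD libraries, with adjusted p of 0.346 and 0.418 by edgeR's quasi-likelihood test. Of the 9 genes tested, 0 were called by edgeR, as were 0% of all 15881 genes. By unadjusted p under 0.05, 2 of the 9 were lower (6.3% of all genes), DESeq2 called 1, Lcn2 (1.62% of all genes called lower), and limma-voom called 0. All 9 log2 fold changes were below 0 (45% of all genes), under TMM, RLE and library total scaling alike, with a median of -0.55 against 0.039 over all genes. The groups did not overlap, with KI-HFD lower, for 2 of the 9 (8.3% of all genes).

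Lcn2 had 2.06, 1.29 and 0.797 CPM in the IWAT KI-HFD libraries, against 2.07, 12.5 and 5.89 CPM in the IWAT WT-NC libraries. The lowest WT-NC library and the highest KI-HFD library were nearly level, and the remaining WT-NC libraries were well above (log2 fold change -2.30, SE 0.671). Without WT-NC replicate 2, the highest library, the log2 fold change of Lcn2 was -1.52. DESeq2 gave Lcn2 an adjusted p of 0.0207 in IWAT. Il1rn (chromosome 2, 24336853 to 24351494, plus strand), the interleukin 1 antagonist gene, had 6.63, 0.479 and 4.23 CPM in KI-HFD and 18.3, 7.35 and 25.5 CPM in WT-NC (log2 fold change -2.17, SE 0.815). KI-HFD replicate 2 held only 10 Il1rn counts, against 148 and 106 in the other KI-HFD libraries, and without it the log2 fold change was -1.66, while without KI-HFD replicate 1 it was -2.86.

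The same library was the lowest for Tnf and Il1b. Tnf had 0.896, 0.0479 and 3.99 CPM in IWAT KI-HFD and 3.54, 1.72 and 2.06 CPM in IWAT WT-NC. KI-HFD replicate 3, with the T and B cell transcripts, was the highest of all 12 libraries for Tnf and replicate 2 the lowest. The log2 fold change of Tnf was -0.55 (SE 1.03, edgeR adjusted p = 0.877) with all libraries, -2.34 without KI-HFD replicate 3 and -0.014 without KI-HFD replicate 2. Il1b had 0.224, 0.0479 and 1.04 CPM in KI-HFD and 1.35, 0.882 and 1.03 CPM in WT-NC. Its KI-HFD counts were 5, 1 and 26, and its log2 fold change was -1.28 (SE 0.849, edgeR adjusted p = 0.622), -2.94 without KI-HFD replicate 3 and -0.79 without KI-HFD replicate 2. With either library left out, 0 members were called by edgeR. The part of lymphocyte transcripts in the Tnf and Il1b values was not tested.

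The remaining genes had overlapping groups in IWAT. Saa3 was at 14.2, 1.63 and 5.90 CPM in KI-HFD and at 11.03, 7.89 and 12.4 CPM in WT-NC. Ptx3 was at 4.17, 1.72 and 3.83 CPM in KI-HFD and at 2.90, 5.79 and 7.99 CPM in WT-NC. The KI-HFD group thus held both the highest and the lowest Saa3 level in IWAT, and 2 of its 3 Ptx3 levels lay inside the WT-NC range. Their log2 fold changes were -0.53 (SE 0.648) and -0.77 (SE 0.474), and that of Saa3 was -1.48 without KI-HFD replicate 1 and -0.064 without KI-HFD replicate 2. Hp, at 4595, 3853 and 1720 CPM in KI-HFD and 4139, 2613 and 5660 CPM in WT-NC, had a log2 fold change of -0.29, which turned above 0 without KI-HFD replicate 3 or WT-NC replicate 3. Socs3 ranged over 7.95 to 18.1 CPM in KI-HFD and 8.40 to 21.6 CPM in WT-NC, and Serpina3n over 210 to 479 CPM and 325 to 418 CPM. The log2 fold changes were -0.22 for Socs3 and -0.18 for Serpina3n, and each turned above 0 with at least 1 library left out. Il6 held 3, 2 and 1 counts in KI-HFD and 1, 1 and 15 in WT-NC and was not tested.

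Macrophage markers in IWAT summed to 1081 to 1395 CPM in KI-HFD and 1012 to 2712 CPM in WT-NC. The median log2 fold change of the 16 genes was -0.71, against 0.039 over all genes. By edgeR 0 of the 16 were called, and 5 were lower by unadjusted p under 0.05 (6.3% of all genes). Neutrophil markers summed to 9.23 to 25.8 CPM in KI-HFD and 22.4 to 40.5 CPM in WT-NC, with 3 to 9 of 14 at 0. In IWAT WT-NC replicate 2, which had the highest sum, 29.3 of the 40.5 CPM came from Ltf, the lactoferrin gene, which was at no more than 0.288 CPM in any other library. With Ltf left out, a choice made after its values were seen, the remaining 13 neutrophil markers summed to 9.23 to 25.6 CPM in KI-HFD and 11.2 to 33.9 CPM in WT-NC. The same WT-NC library had the highest Lcn2 level and the highest mesothelial sum of the 6 IWAT libraries. Fibroblast and progenitor markers summed to 3590 to 4928 CPM in KI-HFD and 4927 to 7302 CPM in WT-NC, adipocyte markers to 28958 to 49358 CPM and 25219 to 34614 CPM, and endothelial markers to 466 to 968 CPM and 1145 to 1696 CPM. Liver markers summed to 37.0 to 91.7 CPM in KI-HFD and 14.4 to 23.8 CPM in WT-NC. Of the 8 liver markers, 2 to 4 were at 0 in a KI-HFD library and 2 to 5 in a WT-NC library. Only 2 of the 8 were tested, and by unadjusted p under 0.05 1 was lower and 1 higher, each without overlap. The liver sum therefore does not describe a direction shared by its markers. Mesothelial markers summed to 2.19 to 4.36 CPM in KI-HFD and 1.32 to 14.8 CPM in WT-NC, and muscle markers to 33.6 to 130 CPM and 75.2 to 841 CPM. The part of these cell types in the IWAT values was not tested.

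The authors' deposited table of KI against WT also lists all 10 genes. In the authors' deposited table for BAT, the log2 fold changes were -1.99 for Lcn2, -2.48 for Saa3 and -1.98 for Ptx3, with adjusted p-values of 0.000235, 2.90e-05 and 8.60e-05, and 1.11% of its 16794 genes with an adjusted p were past 0.05 and lower. The sizes of these fold changes are not comparable with those given above: for Saa3 in BAT, the DESeq2 fit made here gave -5.09. The cause of this difference was not tested. In the authors' deposited table for IWAT, Lcn2 was at -1.31 (adjusted p 0.0135), and 1.58% of 15080 genes were past 0.05 and lower. The authors' deposited table gave every other member an adjusted p above 0.05 in both depots, except Il6, for which it gave none.

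Whether the KI-HFD difference itself differs between depots was tested as an interaction in all 12 libraries, as the BAT log2 fold change minus the IWAT one. For Saa3 this difference was -4.50 (SE 1.37), with an edgeR quasi-likelihood adjusted p of 0.911, and for Ptx3 it was -1.75 (SE 0.703, adjusted p = 1). Of 9 genes tested, 0 were called by edgeR, and so were 0% of all 17395 genes. By unadjusted p under 0.05, 2 of the 9 were called, both with the lower value in BAT (2.73% of all genes), and neither DESeq2 nor limma-voom called any. For Lcn2 the difference was -0.37 (SE 0.937), so its fold changes in the depots differed by less than the error. Il1rn had 1.76 (SE 0.952) and Il1b 1.39 (SE 1.04), with the lower value in IWAT, both with an edgeR adjusted p of 1. When genes with low counts were kept in the fit, the Saa3 difference was -4.53 with an edgeR adjusted p of 0.0405.

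Between the depots of KI-HFD mice, 3 of the 9 genes were lower in BAT than in IWAT and 0 higher by edgeR, where 17.9% of all genes were called lower and 16.8% higher. Serpina3n (chromosome 12, 104406729 to 104414329, plus strand), the protease inhibitor gene, was at 7.14, 5.05 and 13.97 CPM in BAT and at 479, 318 and 210 CPM in IWAT, with no overlap. It was 38.6-fold lower in BAT (log2 fold change -5.27, SE 0.490, edgeR quasi-likelihood adjusted p = 0.000193). Saa3 was 51.0-fold lower in BAT, at 0 to 0.357 CPM against 1.63 to 14.2 CPM in IWAT (log2 fold change -5.67, SE 1.12, edgeR adjusted p = 0.00511). The log2 fold change of Saa3 was -7.72 without BAT KI-HFD replicate 3 and -4.75 without IWAT KI-HFD replicate 1, and it was called without any 1 of the 6 libraries (edgeR adjusted p 0.00309 to 0.031). Socs3 was 2.39-fold lower in BAT (log2 fold change -1.26, SE 0.408, edgeR adjusted p = 0.0422). Its BAT libraries, at 3.24 to 6.54 CPM, were all below its IWAT libraries, at 7.95 to 18.1 CPM, but the call was lost without any 1 of BAT KI-HFD replicates 1, 2 and 3 or of IWAT KI-HFD replicates 1 and 3 (edgeR adjusted p 0.0583 to 0.144). Some BAT and IWAT libraries carry the same file number, and with a block on these shared numbers Socs3 was not called either (edgeR adjusted p 0.0587). Without IWAT KI-HFD replicate 3, Hp was called lower (-1.31) and Il1b higher (3.01) in BAT, and without replicate 2, Ptx3 was called lower (-1.46).

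In WT-NC mice the same comparison called 1 of the 9 genes by edgeR, lower in BAT, where 12.6% of all genes were called lower and 14.2% higher. Serpina3n was at 12.7, 12.6 and 36.8 CPM in BAT and at 398, 325 and 418 CPM in IWAT. The level in BAT was 17.9-fold lower (log2 fold change -4.16, SE 0.467, edgeR quasi-likelihood adjusted p = 0.00097), and the log2 fold change was -4.87 without BAT WT-NC replicate 3. A block on the file numbers shared by both depots cut the genes called in WT-NC mice to 990 where the main fit called 4337. Serpina3n was still called with it. Saa3 was at 1.47 to 9.79 CPM in BAT and 7.89 to 12.4 CPM in IWAT, which overlap (log2 fold change -1.13, SE 0.622, edgeR adjusted p = 0.207), and it was called lower without BAT WT-NC replicate 3 (-2.32). Ptx3 and Lcn2 had log2 fold changes of 0.64 (SE 0.490) and 0.12 (SE 0.566), that of Lcn2 turning below 0 under library total scaling, which itself moves the median of all genes to -0.22. The groups did not overlap, with BAT lower, for 2 of the 9 genes in WT-NC mice, Serpina3n and Tnf (24.7% of all genes), and for 4 of the 9 in KI-HFD mice, Serpina3n, Saa3, Ptx3 and Socs3 (25.2% of all genes). In KI-HFD mice Il1rn was separated in the other direction, at 7.14 to 7.79 CPM in BAT and 0.479 to 6.63 CPM in IWAT (24% of all genes), without passing the test (edgeR adjusted p = 0.337).

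**Figure D4:**
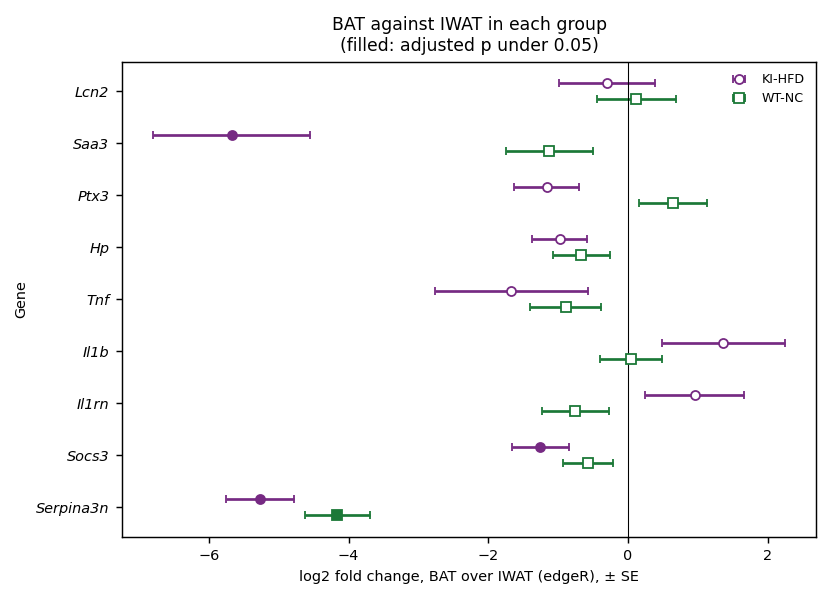
Log2 fold change of BAT over IWAT for the 9 genes tested, in KI-HFD mice (circles) and WT-NC mice (squares). Bars are the SE derived from the edgeR test, and filled symbols mark an adjusted p under 0.05. Serpina3n is filled in both groups, at -5.27 and -4.16, and Saa3 and Socs3 are filled in KI-HFD mice; the Socs3 call was lost with a block on the file numbers shared by both depots (edgeR adjusted p 0.0587).

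The balance between Il1rn and Il1b was compared as the ratio of their levels per kilobase of exon. It was 1.74 to 2.99 in BAT KI-HFD, 1.75 to 4.84 in BAT WT-NC, 1.40 to 10.2 in IWAT KI-HFD and 2.87 to 8.53 in IWAT WT-NC. The antagonist transcript thus exceeded the cytokine transcript in every library, and the ranges of all 4 groups overlapped. In IWAT KI-HFD the ratio rests on as little as 1 Il1b count.

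Genes around the members were read from 7 lists that share no gene with them. By edgeR, 0 of their tested genes were called in BAT (113 tested), in IWAT (123) or for the interaction (125), and limma-voom also called 0 in each. DESeq2 called 11 in BAT, 5 in IWAT and 2 for the interaction. Of all genes it called 269 of 15723 in BAT, 341 of 14503 in IWAT, and 28 for the interaction, whose fit held 17395 genes. By unadjusted p under 0.05 edgeR had 23 lower and 1 higher in BAT, 10 lower and 7 higher in IWAT, and 8 lower and 1 higher for the interaction. Of all genes, 4.76% were lower by this rule in BAT, 6.3% in IWAT and 2.73% for the interaction. The same shares apply to the list counts below. In either direction, 1244 of all 15726 genes passed it in BAT and 1730 of all 15881 in IWAT. Of these, 748 in BAT and 1000 in IWAT were lower. Summed over the 7 lists, the IWAT counts lie near these shares, but single lists differed. Receptors and partners of acute-phase proteins had 4 of 12 lower and 0 higher in IWAT. The other acute-phase genes had 2 of 23 lower and 5 higher there. Of 12 tested genes for other cytokines, 3 were lower in BAT by unadjusted p under 0.05 and 0 higher, and DESeq2 called Il16, at 4.51 ± 1.26 CPM in KI-HFD and 10.2 ± 0.996 CPM in WT-NC (SD, n = 3 each). Il16 encodes a leukocyte attractant that signals through CD4. Csf1, the macrophage growth factor gene, was at 23.0 ± 0.511 CPM and 40.2 ± 14.1 CPM in these groups, and Tslp at 0.780 ± 0.208 and 1.96 ± 0.527 CPM, with no overlap for either. In IWAT, 1 of 15 was lower by unadjusted p, near the share of all genes (6.3%). It was Il15, at 9.19 ± 0.596 CPM in KI-HFD and 13.4 ± 1.72 CPM in WT-NC.

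Among 18 tested cytokine receptor genes, 5 were lower in BAT by unadjusted p under 0.05 and 0 higher, with a median log2 fold change of -0.23. They included Il10ra (-1.36, SE 0.403), Osmr, the oncostatin M receptor gene (-0.67, SE 0.251), and Csf1r (-1.76, SE 0.672), which is also a macrophage marker. In IWAT, Il1r2, the decoy receptor that binds interleukin 1 without signalling, stood at 24.9 ± 15.6 CPM in KI-HFD and 6.77 ± 3.44 CPM in WT-NC, with no overlap. Its log2 fold change was 1.88 (SE 0.515), with an edgeR quasi-likelihood adjusted p of 0.323 and a call by DESeq2. Il1rl1, the interleukin 33 receptor gene, was at 3.23 ± 0.393 CPM in KI-HFD and 5.59 ± 0.765 CPM in WT-NC in IWAT (log2 fold change -0.79).

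All 11 genes for the inflammasome and interleukin 1 processing were tested in BAT, and 5 were lower by unadjusted p under 0.05, with a median log2 fold change of -0.92. Pycard, the adaptor of the inflammasome, was at 1.37 ± 0.474 CPM in KI-HFD and 4.92 ± 1.33 CPM in WT-NC, and Casp1, the protease that matures interleukin 1 beta, at 2.04 ± 0.779 and 7.0 ± 3.70 CPM. DESeq2 called both. The ATP-gated channel gene P2rx7 was lower without overlap in both depots, with log2 fold changes of -0.94 (SE 0.355) in BAT and -0.91 (SE 0.284) in IWAT. In IWAT the median of the 11 genes was -0.11.

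Of 23 tested genes for NF-kB factors and their feedback, 3 were lower in BAT by unadjusted p under 0.05 and 0 higher. Tnip3, a partner of the NF-kB inhibitor A20, had the largest difference: 0.477 ± 0.214 CPM in KI-HFD and 5.67 ± 1.01 CPM in WT-NC, a log2 fold change of -3.57 (SE 0.463, edgeR quasi-likelihood adjusted p = 0.0785). In IWAT Tnip3 was at 2.87 ± 1.63 CPM in KI-HFD and 9.42 ± 3.90 CPM in WT-NC (-1.71, SE 0.538), and DESeq2 called it in both depots. Ikbke, a kinase gene of the interferon and NF-kB pathways, was at 1.43 ± 0.872 CPM in BAT KI-HFD and 5.44 ± 1.39 CPM in BAT WT-NC. Ikbke was not lower in IWAT, at 16.3 ± 9.40 CPM in KI-HFD and 9.77 ± 1.35 CPM in WT-NC, and its interaction was called by DESeq2 and not by edgeR. The subunit gene Nfkb2 was at 14.4 ± 1.79 CPM in KI-HFD and 23.9 ± 4.49 CPM in WT-NC in BAT. Among 18 tested JAK-STAT3 and C/EBP genes, 1 was lower in BAT by unadjusted p, Cebpd (-1.21, SE 0.498), and the median was -0.12. This count lies near the share of all genes (4.76%). In IWAT 0 were lower and 1 higher, Stat5b (0.42, SE 0.131).

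The 19 tested other acute-phase genes did not share a direction in BAT: 1 was lower and 1 higher by unadjusted p under 0.05, and the median was -0.27. The count of lower genes lies near the share of all genes (4.76%). The higher gene was Orm3, an orosomucoid gene, at 14.6 ± 3.77 CPM in KI-HFD and 4.42 ± 1.29 CPM in WT-NC (log2 fold change 1.71, SE 0.341, edgeR adjusted p = 0.262). The lower gene was Lbp, which encodes the lipopolysaccharide binding protein, at 7.70 ± 0.521 CPM in KI-HFD and 34.8 ± 27.7 CPM in WT-NC (-2.18, SE 0.496, edgeR adjusted p = 0.286). DESeq2 called both. In IWAT, 2 of 23 were lower and 5 higher by unadjusted p. There too the count of lower genes lies near the share of all genes (6.3%). Of all 15881 genes, 1730 passed in either direction, 1000 of them lower. Agt, the angiotensinogen gene, was at 63.5 ± 60.0 CPM in KI-HFD and 5.07 ± 2.61 CPM in WT-NC (3.65, SE 0.779), and the metalloreductase gene Steap4 at 871 ± 248 and 418 ± 77.7 CPM (1.06, SE 0.263). DESeq2 called Agt, Steap4 and Cp in IWAT.

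Receptors and partners of acute-phase proteins were 12 tested genes, of which 5 were lower in BAT and 4 in IWAT by unadjusted p under 0.05, and 0 higher in either. Fcgr1, an Fc receptor gene and macrophage marker, was at 0.429 ± 0.149 CPM in BAT KI-HFD and 3.35 ± 2.38 CPM in BAT WT-NC (-2.95, SE 0.639). Hmox1, whose product degrades haem, was at 17.4 ± 2.38 and 45.5 ± 24.9 CPM in these groups (-1.40, SE 0.359). Tnfaip6, whose product binds pentraxin 3 and hyaluronan, was lower without overlap in both depots, by -2.79 (SE 0.860) in BAT and -1.17 (SE 0.327) in IWAT. DESeq2 called Fcgr1, Fcgr3, Hmox1 and Tnfaip6 in BAT.

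Between the depots of KI-HFD mice, where 17.9% of all genes were called lower in BAT and 16.8% higher, edgeR called 12 of 20 cytokine receptor genes and 10 of 12 receptors and partners of acute-phase proteins lower in BAT and 0 higher, beside 14 of 16 macrophage markers lower. Also in KI-HFD mice, the inflammasome list had 6 of 10 genes lower and 0 higher, the other acute-phase genes 10 of 22 lower and 2 higher, the other cytokines 7 of 13 lower and 1 higher, the NF-kB list 8 of 24 lower and 1 higher, and the JAK-STAT3 and C/EBP list 6 of 18 lower and 3 higher. In WT-NC mice, where 12.6% of all genes were called lower in BAT and 14.2% higher, the cytokine receptors had 7 of 20 lower and 0 higher, the other acute-phase genes 10 of 23 lower and 4 higher, and the other cytokines 5 of 14 lower and 1 higher. The receptors and partners of acute-phase proteins had 3 of 12 lower, the macrophage markers 3 of 16 and the inflammasome list 2 of 11, each with 0 higher, and the macrophage and inflammasome counts lie near the share of all genes. The NF-kB list had 2 of 24 lower and 1 higher, and the JAK-STAT3 and C/EBP list 1 of 18 lower and 3 higher. The part of macrophages in these depot differences was not tested.

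**Figure D5:**
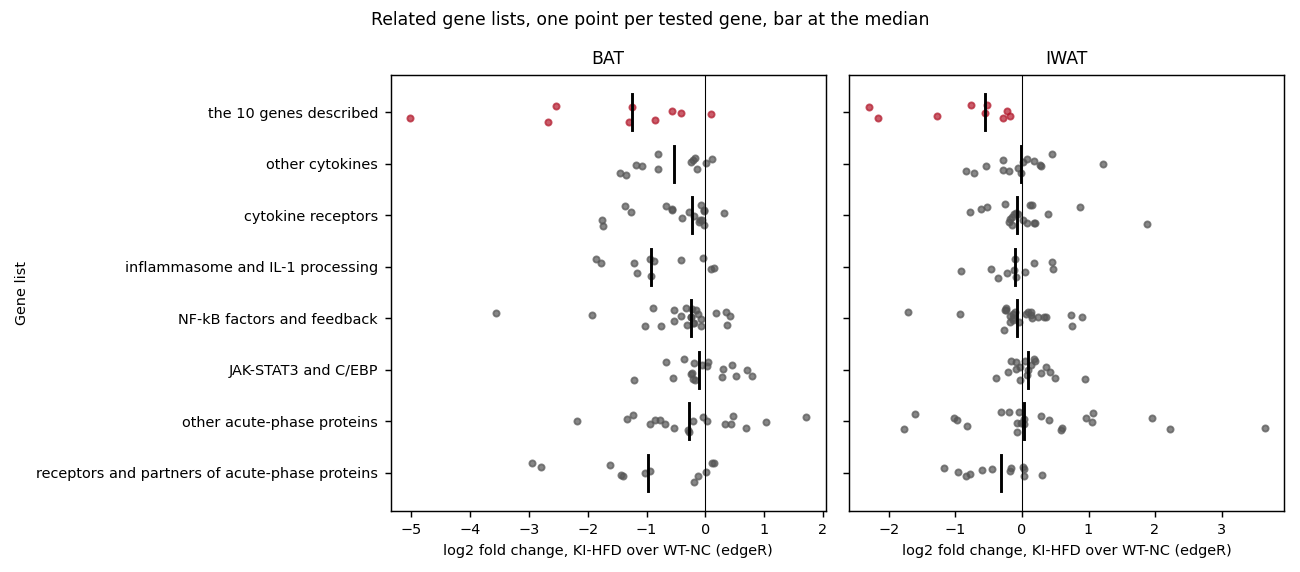
Log2 fold change of KI-HFD over WT-NC in BAT (left) and IWAT (right) for every tested gene of the 10 described (red) and of the 7 related lists (grey), with a black bar at each median. In BAT the medians run between -1.25 for the 10 genes described and -0.12 for JAK-STAT3 and C/EBP genes, and in IWAT between -0.55 and 0.08 for the same lists.

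Genes with the most similar profile over the 12 libraries were named by the root mean square (RMS) difference of log2 CPM after centring each gene, among 14336 genes compared. Serpina3n was closest to Serpina3c, a related gene also on chromosome 12, at an RMS of 0.335 where its own SD was 2.51. Saa3 (SD 2.42) was closest to Gpnmb (0.776) and Lgals3 (0.822), which are transcripts of lipid-laden macrophages, and Gpnmb is in the macrophage marker list. Lcn2 (SD 1.44) was closest to Zfp57 (0.853) and to the neutrophil chemokine gene Cxcl2 (0.880). Ptx3 (SD 1.03) was closest to Nab2 (0.582), Tnf (SD 1.31) to Serpinb6b (0.453), Il1rn (SD 1.30) to Ms4a14 (0.592) and Il1b (SD 0.984) to Cabp1 (0.462). Hp (SD 0.607) and Socs3 (SD 0.707) were closest to Nt5dc2 (0.280) and Wipf1 (0.231). Among the members themselves the closest pair was Hp and Socs3, at 0.632, and the most distant Il1b and Serpina3n, at 3.07.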

How the data were processed

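Poly-A RNA of 12 mouse libraries was sequenced single-end and without strand, per the labels' protocols. The authors deposited read counts per gene for each library; per the submitters' processing notes, FastQC, STAR and HTSeq were used with the GRCm38.p5 build, and the versions are not given in the sources used here. In the tallies without a gene that the BAT tables hold, left out of library sizes, 4.99 to 11.6% of reads fell in no gene. A further 22.7 to 31.6% were tallied as not uniquely aligned. The authors' deposited tables of KI against WT hold a mean signal of normalised counts, the log2 fold change and its standard error, a Wald score, and raw and adjusted p-values, per the file headers, and DESeq2 is named in the submitters' processing notes.

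Counts were tested in R 4.3.3 with edgeR 4.0.16 (quasi-likelihood test, filterByExpr with a minimum count of 10, TMM, Benjamini-Hochberg adjustment over all genes tested, threshold 0.05). The SE given with an edgeR log2 fold change was derived as its absolute value divided by the square root of the test's F statistic. Levels are CPM with TMM over 12 libraries, with SD and n = 3. Groups came from the titles. Comparisons within a depot or group used its 6 libraries, and the interaction used all 12. DESeq2 1.42.0, limma-voom (limma 3.58.1), other scalings, no filter, replicate blocks and leaving out each library were alternatives. The fits were tested on simulated data. Names and positions came from GENCODE M21 (GRCm38), in which all 55536 identifiers were found. Genes named were all members, the tested genes of each list with the lowest p in BAT (3) and IWAT (2), the 3 highest genes of each marker list and the 2 genes most like each member, of which some are printed. Ranges and floors cover counting error only. A marker gene of the T and B cell list is not reported here and was left out of its sums. The members and the lists were chosen with earlier results of these data known.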

Additional observations from a re-analysis of the deposited data

How the results depend on the processing

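Of the 40 mean levels, 38 moved by less than 1 SD on library totals, and of 336 counts of calls in the 7 related lists, each 0 by edgeR, 319 stayed at 0 under the alternatives and 17 did not. In BAT, where edgeR called 7 genes and 0 members, DESeq2 called 269 genes and 3 members, no filter 207 and 3, the replicate block 11 genes, the lower number series 1, and limma-voom, RLE, library totals, the number series as a term and all 12 libraries in 1 fit 0; leaving out single libraries gave 0 to 2 genes and 0 members. In IWAT, with 0 of each, DESeq2 called 341 genes and 1 member, no filter 45 genes, library totals 2, all 12 libraries 1, and leaving out single libraries 0 to 10. For the interaction DESeq2 called 28 genes and no filter 33, with 1 member. Leaving out single libraries gave 3463 to 5243 genes and 2 to 4 members between depots in KI-HFD, and 1911 to 6969 genes and 1 to 2 members in WT-NC, where a block on the file numbers shared by both depots gave 990 genes.

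The replicate numbers did not pair the samples (correlations of deviations -0.23 to 0.235), so a block on them was not used in the main result. For BAT and IWAT libraries with the same file number, these correlations were -0.0726 to 0.0688 in KI-HFD, and -0.108 and 0.00924 in WT-NC. No block on file numbers was used in the main result, and none was fitted for the interaction. The block on shared file numbers ended the Socs3 call between depots in KI-HFD (edgeR adjusted p 0.0587). With the replicate block, the Tnf interaction turned to 0.20, and with limma-voom to 0.65. The sign also turned in BAT for Il1b on library totals (-0.055) and in the lower number series (-0.12), where Il1rn was at 0.025; in IWAT for Hp (0.32) and Serpina3n (0.14) in that series; and between depots in WT-NC for Lcn2 (-0.091) and Il1b (-0.18) on library totals and Il1b in the fit of all 12 libraries (-0.002). Leaving out single libraries gave ranges across 0 for Il1b (-0.11 to 0.31) and Il1rn (-0.60 to 0.024) in BAT, for Hp (-0.57 to 0.032), Socs3 (-0.56 to 0.14) and Serpina3n (-0.53 to 0.067) in IWAT, for Lcn2 (-0.82 to 0.14) and Tnf (-2.22 to 0.11) between depots in KI-HFD, for Lcn2 (-0.28 to 0.97) and Il1b (-0.17 to 0.29) in WT-NC, and for Lcn2 (-1.14 to 0.080), Hp (-0.58 to 0.016) and Tnf (-1.28 to 1.07) in the interaction. The cause of these shifts was not tested. Depth limits Il6 in all libraries and Saa3 in BAT KI-HFD.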
